A study of Rattus norvegicus with 12 samples.

Results

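The genes that build and run the contractile apparatus of striated muscle were followed in fetal rat metatarsals, small cartilaginous bones of the hind paw, cultured for 72 h with dexamethasone, LiCl or both. The set held 46 genes, taken by symbol from the 30045 symbols in the count files: 13 of the thin filament, 15 of the thick filament, 10 of the Z-disc and M-band and 8 of the membrane systems, calcium handling and energy supply. Of the 46 genes, 23 reached 60 counts in 2 or more libraries out of 12 and were tested. The other 23 were low: Actn2, Myh1, Myh2, Myh4, Myh7, Myh8, Myl2, Myl3, Myl4, Mylk2, Tnnt1, Tnnc2, Ttn, Myoz1, Myoz2, Mybpc2, Mybph, Myom2, Cav3, Ckm, Casq1, Casq2 and Atp2a1. At the edge of this filter, the second-highest count of a library was 54 for Actn2, which stayed out, and 64 for Actn3, which stayed in.

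Bones came from Sprague Dawley fetuses at embryonic day 19, and about 20 bones were pooled for each library. Each of 4 groups had 3 pools: control medium, 1 µM of the glucocorticoid dexamethasone (Dex), 10 mM of the Wnt-activating salt LiCl, and both drugs (Dex + LiCl). All groups shared a medium without serum, with albumin, β-glycerolphosphate and ascorbic acid, and the control and LiCl cultures received ethanol in the volume that the others received of dexamethasone solution. The study asked whether LiCl counteracts the growth arrest that glucocorticoids cause in growth plate cartilage. The sex of the fetuses was not given, there was no salt control for LiCl, and in whole bones fewer cells of a type and less RNA per cell cannot be told apart.

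In a sarcomere, myosin heads of the thick filament pull on actin of the thin filament when calcium binds troponin C and shifts tropomyosin. Calcium is released from the sarcoplasmic reticulum by the ryanodine receptor and is pumped back by a calcium ATPase, while Z-disc and M-band proteins hold the filaments in register. Muscle builds these structures from isoforms that change with age and fibre type: embryonic myosin and cardiac actin mark fetal muscle, and slow and fast fibres carry their own troponins, myosins and calsequestrins. Some of the genes, such as Tpm1, Tpm3 and Myom1, are also used outside striated muscle.

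LiCl raised the striated actins, the embryonic myosin and a fast light chain, and levels were highest in bones that also received dexamethasone. Acta1 (skeletal actin), Actc1 (cardiac actin, the fetal form), Myh3 (embryonic myosin heavy chain) and Myl1 (fast essential light chain) were 5.16-fold to 8.98-fold higher with LiCl alone and 12.6-fold to 22-fold higher with both drugs than in control. Acta1, Actc1 and Myl1 passed the count filter only through pools with LiCl, and Myh3 only through pools with a drug. A difference was thereby built into the choice of these genes, and their folds rest on 7 to 52 counts per control pool. Their calls held with no count filter. Dexamethasone raised another group with and without LiCl, led by Tnni1 (slow troponin I) and Ldb3 (a Z-disc scaffold). Tnni1 also passed only through pools with a drug. Srl and Ryr1, of the sarcoplasmic reticulum, were lower with dexamethasone and higher with LiCl, and were near the control level with both.

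The promoters of 4 genes are shown because they stand for these patterns: Acta1 and Myh3 for the genes that LiCl raised, Tnni1 and Ldb3 for those that dexamethasone raised. Each line gives the 250 bases before the RefSeq transcription start on the strand of the gene, in the rat assembly GRCr8, with matches to a searched motif in capitals. These windows are chr19:68784195-68784444 for Acta1 (minus strand), chr10:52268935-52269184 for Myh3 (plus), chr13:49781279-49781528 for Tnni1 (plus) and chr16:9924680-9924929 for Ldb3 (minus).
Acta1: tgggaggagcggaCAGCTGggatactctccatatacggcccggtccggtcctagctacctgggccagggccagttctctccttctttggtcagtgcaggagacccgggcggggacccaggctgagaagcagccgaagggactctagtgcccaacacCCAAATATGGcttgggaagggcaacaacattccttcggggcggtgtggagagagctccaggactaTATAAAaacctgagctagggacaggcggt
Myh3: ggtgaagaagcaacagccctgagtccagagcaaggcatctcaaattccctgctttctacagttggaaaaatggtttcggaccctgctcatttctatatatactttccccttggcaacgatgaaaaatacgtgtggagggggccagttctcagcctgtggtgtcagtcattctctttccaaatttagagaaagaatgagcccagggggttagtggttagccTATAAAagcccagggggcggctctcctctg
Tnni1: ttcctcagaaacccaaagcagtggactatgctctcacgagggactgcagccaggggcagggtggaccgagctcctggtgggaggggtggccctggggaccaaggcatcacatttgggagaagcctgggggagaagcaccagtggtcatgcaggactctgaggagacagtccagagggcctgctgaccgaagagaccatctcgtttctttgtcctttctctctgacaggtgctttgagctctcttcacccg
Ldb3: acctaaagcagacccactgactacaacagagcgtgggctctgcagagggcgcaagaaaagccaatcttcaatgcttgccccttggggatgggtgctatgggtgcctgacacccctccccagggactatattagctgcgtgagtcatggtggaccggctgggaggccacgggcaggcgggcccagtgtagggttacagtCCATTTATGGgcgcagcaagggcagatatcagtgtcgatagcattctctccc
The motifs, searched on both strands, were CAGCTG (an E-box that myogenic factors bind), TATAAA (a core promoter element) and AGAACA (one arm of a glucocorticoid response element), beside the CArG box and the MEF2 site, which muscle genes often carry, and matches of different motifs could overlap. In the Acta1 window CAGCTG began 237 bases, a CArG box 94 bases and TATAAA 29 bases before the start. Myh3 had TATAAA 30 bases and Ldb3 a CArG box 52 bases before the start, and Tnni1 had no match. Among all 33469 promoter windows of the table, 12% held CAGCTG, 12.9% TATAAA, 17.5% AGAACA, 2.96% a MEF2 site and 1.5% a CArG box. Of the 36 members with a window, 13 held CAGCTG, 10 TATAAA, 2 AGAACA, 8 a MEF2 site and 4 a CArG box, which describes letters in these windows and not binding.

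Total counts per library were 9055581 to 21953446, and the dexamethasone pools (9263078 to 11685463) included 2 below the smallest control library (controls 10761816 to 21953446). Levels are given as CPM, the counts scaled to library size with TMM factors, and a gene was called changed at an adjusted p under 0.05 over all 12602 genes tested. All 5 glucocorticoid-responsive genes checked, such as Fkbp5 and Per1, rose with dexamethasone, and all 5 Wnt-responsive genes, such as Axin2 and Lef1, rose with LiCl. Summed chondrocyte marker levels, mostly Col2a1, were 51900 to 83918 CPM over the 12 pools, with overlapping ranges in all groups. Those of osteoblast markers, mostly Col1a1, were 14966 to 19006 CPM in control and 9615 to 15416 with dexamethasone. They were 11542 to 13134 with LiCl and 9379 to 12363 with both drugs, all below control. Of 8 tested chondrocyte genes 1 rose with dexamethasone and 2 fell with LiCl. Of 6 tested osteoblast genes 1 rose and 1 fell with dexamethasone, and 1 fell with LiCl. Of all genes 5.45% rose and 5.49% fell with dexamethasone, and 4.71% and 5.9% with LiCl.

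Dexamethasone against control raised 6 and lowered 3 of the 23 tested members (of all genes, 5.45% were higher and 5.49% lower, 10.9% in either direction). LiCl against control raised 12 and lowered 2 (all genes 4.71% and 5.9%, 10.6% in either direction). Adding LiCl to dexamethasone raised 13 and lowered none (3.82% and 4.78%, 8.6% in all), and adding dexamethasone to LiCl raised 13 and lowered 1 (3.79% and 3.09%, 6.87% in all). With both drugs 13 were higher and 1 lower than in control (10.8% and 11.8%, 22.6% in all). The median log2 fold change of the tested members was 0.05, 0.67, 0.70, 0.66 and 1.14 in these comparisons, while that of all genes was between -0.00424 and 0.00847. These counts are not a fair sample of the 46: 10 members passed the filter only through some conditions, namely Acta1, Actc1 and Myl1 only through pools with LiCl, Myh3 and Tnni1 only through pools with a drug, Actn3 only through 2 pools with dexamethasone, Tnnc1 only through 2 control pools, and Mylpf, Ryr1 and Srl through every condition except dexamethasone alone. A difference was thereby built into the choice of those genes. Of the 13 with a library of at least 60 counts in every condition, 4 were higher and 1 lower with dexamethasone, 4 and 1 with LiCl, 5 and 0 with LiCl added to dexamethasone, and 6 and 0 with dexamethasone added to LiCl. The comparisons share samples, so their counts are not independent of each other.

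**Figure D1:**
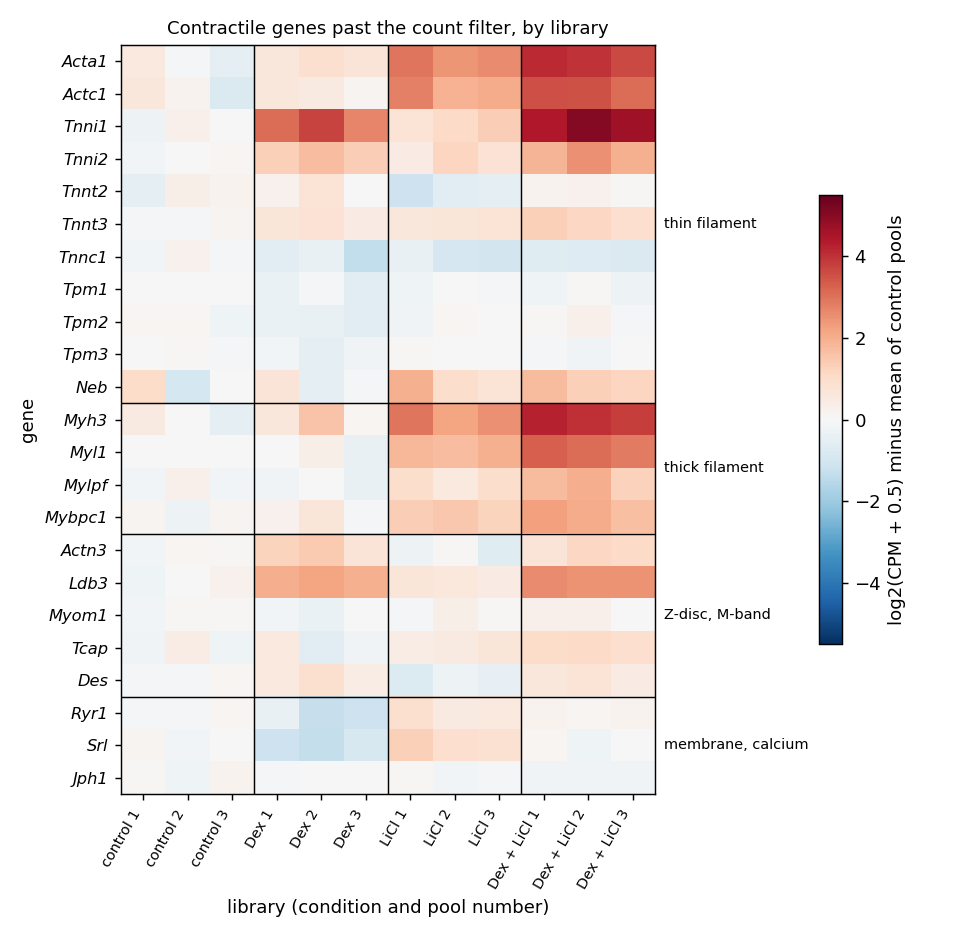
Levels of the 23 tested contractile genes in the 12 libraries, as log2(CPM + 0.5) minus the mean of the 3 control pools (color), with genes in rows by role and libraries in columns by condition. Acta1, Actc1, Myh3, Myl1 and Mylpf darken with LiCl and more with both drugs, Tnni1, Tnni2 and Ldb3 with dexamethasone, and the 3 tropomyosins stay pale.

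Both striated actins of the thin filament followed LiCl. Acta1 was 1.26, 0.650 and 0.353 CPM in control pools 1, 2 and 3, 1.35, 1.68 and 1.46 with dexamethasone, 8.86, 5.87 and 6.78 with LiCl and 19.9, 18.3 and 14.4 with both. Every pool with LiCl lay above every pool without it, and every pool with both drugs above every pool with LiCl alone. The log2 fold change of Acta1 was 3.17 (SE 0.31, adjusted p = 1.35e-05) with LiCl against control, 3.53 (SE 0.30, adjusted p = 4.75e-06) with LiCl added to dexamethasone and 1.29 (SE 0.23, adjusted p = 0.00196) with dexamethasone added to LiCl. With dexamethasone alone it was 0.93 (SE 0.40, adjusted p = 0.17), which did not pass, although the 3 pools (13, 20 and 13 counts) lay above those of control (28, 7 and 7 counts in larger libraries). Actc1 was 2.16, 1.49 and 0.504 CPM in control, 2.17, 1.93 and 1.46 with dexamethasone, 11.3, 6.03 and 6.59 with LiCl and 20.0, 19 and 14.2 with both. Its pools with LiCl were again all above those without, by 2.49 (SE 0.36, adjusted p = 0.000417) on the log2 scale without dexamethasone and 3.24 (SE 0.36, adjusted p = 5.69e-05) with it. Control pool 1 was the highest of its group for both actins, and without it the difference of LiCl from control was 3.92 for Acta1 and 3.15 for Actc1, and that of both drugs from control, 4.46 and 3.66 over all pools, was 5.21 and 4.31. The rise of Actc1 with dexamethasone added to LiCl (1.16, SE 0.29, adjusted p = 0.0212) was lost without LiCl pool 2 or 3 or Dex + LiCl pool 1 or 2 (1.00 to 1.11, adjusted p = 0.0833 to 0.115). The proteins of these actins are nearly identical, so reads could have been shared between them and between either and other actin genes.

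Troponin I, the inhibitory subunit, was the thin filament gene most changed by dexamethasone, in its slow form. Tnni1 was 1.17, 1.95 and 1.46 CPM in control, 16.6, 26.0 and 12.3 with dexamethasone, 2.86, 3.67 and 4.60 with LiCl and 41.9, 66.3 and 49.8 with both drugs. The 4 groups did not overlap, in the order control, LiCl, dexamethasone, both. Dexamethasone raised Tnni1 by 3.66 (SE 0.31, adjusted p = 8.33e-07) on the log2 scale without LiCl and by 3.80 (SE 0.25, adjusted p = 1.23e-07) with it. LiCl raised it by 1.51 (SE 0.22, adjusted p = 0.000649) in the presence of dexamethasone and by 1.37 (SE 0.35, adjusted p = 0.0212) alone, the latter lost without control pool 1 or 3 or LiCl pool 2 or 3 (1.18 to 1.39, adjusted p = 0.0521 to 0.103). Tnni2, the fast form, was 2.70, 3.06 and 3.27 CPM in control, 8.28, 10.9 and 8.41 with dexamethasone, 4.29, 7.34 and 5.57 with LiCl and 12.3, 19.6 and 13.0 with both. It rose with dexamethasone by 1.62 (SE 0.24, adjusted p = 0.000251) without and 1.37 (SE 0.21, adjusted p = 0.000616) with LiCl, again with no overlap of pools. With LiCl alone it rose by 0.94 (SE 0.24, adjusted p = 0.0188), a call lost without control pool 1 or LiCl pool 2 or 3 (0.73 to 0.97, adjusted p = 0.0504 to 0.0979). With LiCl added to dexamethasone its change was 0.70 (SE 0.21, adjusted p = 0.0563), and with the pool number as a block 0.69 (SE 0.15, adjusted p = 0.00712).

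Troponin T, which ties the complex to tropomyosin, passed the filter in its fast and cardiac forms, while the slow form, Tnnt1, was low and is given with the low genes. Tnnt3, the fast form, was 17.6, 17.1 and 20.4 CPM in control, 29.4, 32.0 and 24.9 with dexamethasone, 28.1, 29.0 and 31.0 with LiCl and 46.2, 41.1 and 35.3 with both. All pools with a drug lay above control, and all pools with both above either drug alone. It rose by 0.65 (SE 0.12, adjusted p = 0.00216) with dexamethasone, 0.67 (SE 0.12, adjusted p = 0.00186) with LiCl and 1.14 (SE 0.12, adjusted p = 4.95e-06) with both. The calls on adding the other drug were smaller and were lost for LiCl on dexamethasone (0.50, adjusted p = 0.0173) without Dex pool 3 or Dex + LiCl pool 1 or 2 (0.40 to 0.49, adjusted p = 0.0523 to 0.0831), and for dexamethasone on LiCl (0.47, adjusted p = 0.0195) without LiCl pool 1 or 2 or Dex + LiCl pool 1 or 2 (0.37 to 0.46, adjusted p = 0.0673 to 0.113). Tnnt2, the cardiac form also made in fetal skeletal muscle, was 10.5, 18.8 and 17.5 CPM in control, 17.9, 25.7 and 15.0 with dexamethasone, 6.57, 9.65 and 10.2 with LiCl and 17.3, 18 and 15.8 with both. The LiCl pools were the lowest, all below the control pools. It fell with LiCl by 0.79 (SE 0.23, adjusted p = 0.0364) and rose by 0.93 (SE 0.23, adjusted p = 0.0195) when dexamethasone was added to LiCl. The fall was lost without control pool 2 or 3, any LiCl pool or Dex + LiCl pool 1 (-0.90 to -0.63, adjusted p = 0.0512 to 0.141), and the rise without LiCl pool 1 or Dex + LiCl pool 1 or 2 (0.78 to 0.92, adjusted p = 0.0602 to 0.0949).

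Troponin C, the calcium sensor, gave opposite directions in its slow-cardiac and fast forms. Tnnc1, the slow-cardiac form, was 3.47, 4.73 and 3.78 CPM in control, 2.48, 2.85 and 1.23 with dexamethasone, 2.86, 1.84 and 1.74 with LiCl and 2.29, 2.19 and 2.10 with both. All pools with a drug were below the control pools. It fell by 0.90 (SE 0.26, adjusted p = 0.0382) with LiCl and by 0.85 (SE 0.27, adjusted p = 0.0361) with both, while with dexamethasone its change was -0.81 (SE 0.28, adjusted p = 0.0774; -0.84 with adjusted p = 0.0488 with the pool number as a block). It passed the filter only through control pools 1 and 3 (77 and 75 counts), in the group where it is high, and without either it was not tested. With no count filter, and all libraries, it fell by 0.90 (adjusted p = 0.0194) with LiCl. The LiCl call was lost without control pool 2, LiCl pool 2 or 3 or Dex + LiCl pool 1 or 3 (-0.90 to -0.76, adjusted p = 0.0503 to 0.159), and that of both drugs without control pool 2 or any Dex + LiCl pool (-0.87 to -0.73, adjusted p = 0.0769 to 0.108). Tnnc2, the fast form, did not pass the filter. Its counts were 10, 0 and 1 in control, 6, 4 and 1 with dexamethasone, 33, 41 and 47 with LiCl and 31, 47 and 60 with both.

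The tropomyosins, which cover the myosin sites on actin, had smaller changes. Tpm1 was 159 to 249 CPM and Tpm3 125 to 182 CPM over the 12 pools, and neither was called in any comparison of the fit without a block. All dexamethasone pools of both genes lay below the control pools, and with the pool number as a block Tpm1 fell by 0.35 (adjusted p = 0.0147) and Tpm3 by 0.28 (adjusted p = 0.0404) with dexamethasone. Tpm2 was 45.1, 45.7 and 35.9 CPM in control, 32.4, 31.8 and 27.5 with dexamethasone, 37.1, 45.5 and 42.4 with LiCl and 44.4, 50.5 and 39.1 with both. The dexamethasone pools were the 3 lowest. It fell by 0.46 (SE 0.12, adjusted p = 0.0231) with dexamethasone and rose by 0.54 (SE 0.12, adjusted p = 0.0141) when LiCl was added to dexamethasone. Without control pool 1 or 2 or Dex pool 3 the fall did not pass (-0.41 to -0.39, adjusted p = 0.0717 to 0.0861), nor did the rise without Dex pool 3 or Dex + LiCl pool 2 (0.44 to 0.47, adjusted p = 0.0665 to 0.0668). Neb (nebulin, which sets thin filament length) was 11.1, 2.41 and 5.14 CPM in control, 9.0, 3.53 and 4.93 with dexamethasone, 21.9, 10.8 and 9.30 with LiCl and 18.7, 13.7 and 12.7 with both. Pools numbered 1 were the highest in each group and control overlapped the groups with 1 drug and lay below the group with both. Its log2 fold change of 1.07 with LiCl, 1.37 with LiCl added to dexamethasone and 1.18 with both against control did not pass (adjusted p = 0.116, 0.0771 and 0.0566), while with the pool number as a block they were 1.15, 1.46 and 1.34 (adjusted p = 0.00238, 0.0011 and 0.000351).

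**Figure D2:**
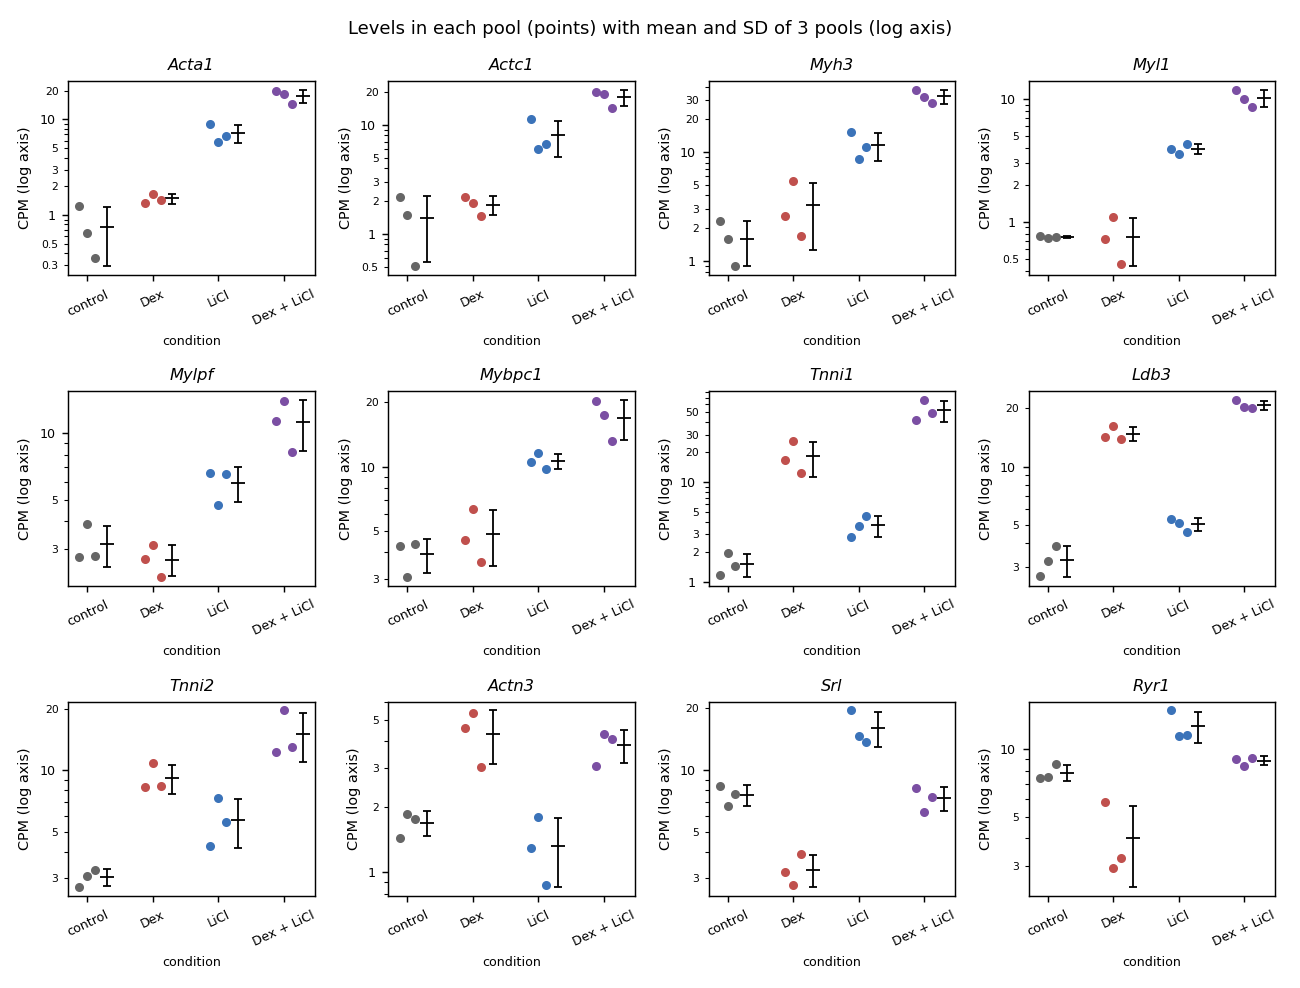
CPM of 12 contractile genes in each pool (points, colored by condition) with the mean and SD of 3 pools (bars), on a log axis. For Acta1, Actc1, Myh3, Myl1, Mylpf and Mybpc1 the LiCl pools and, above them, the Dex + LiCl pools leave the control range. Tnni1, Ldb3, Tnni2 and Actn3 are high in both groups with dexamethasone, and Srl and Ryr1 are lowest with dexamethasone and highest with LiCl.

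Among thick filament genes, the embryonic heavy chain was the 1 myosin heavy chain of the set past the filter. Myh3 was 2.34, 1.58 and 0.907 CPM in control, 2.59, 5.46 and 1.68 with dexamethasone, 15.3, 8.71 and 11 with LiCl and 37.4, 32.2 and 28.1 with both. Pools with LiCl lay above those without, and pools with both drugs above LiCl alone. Its log2 fold change was 2.82 (SE 0.34, adjusted p = 0.000103) with LiCl, 3.26 (SE 0.32, adjusted p = 1.86e-05) with LiCl added to dexamethasone and 1.49 (SE 0.26, adjusted p = 0.0019) with dexamethasone added to LiCl, and 1.04 (SE 0.42, adjusted p = 0.134) with dexamethasone alone. Dex pool 2 was the highest without LiCl, and leaving it out moved the rise with LiCl added to dexamethasone to 3.92. The neonatal, slow and adult fast heavy chains were nearly absent: Myh8 had 0 to 20 counts a library, Myh7 0 to 6, and Myh1, Myh2 and Myh4 0 to 3. Heavy chain genes are alike in sequence, so counts of a few reads in one of them may come from another.

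The light chains stabilise the lever arm of the myosin head. Myl1, the fast essential chain, was 0.765, 0.743 and 0.756 CPM in control, 0.724, 1.09 and 0.448 with dexamethasone, 3.93, 3.57 and 4.31 with LiCl and 11.9, 9.95 and 8.70 with both. The control pools were almost equal, and LiCl raised the gene by 2.37 (SE 0.25, adjusted p = 2.52e-05) on the log2 scale alone and by 3.68 (SE 0.26, adjusted p = 1.2e-06) on top of dexamethasone. Dexamethasone left it at 0.05 (SE 0.35, adjusted p = 0.953) without LiCl and raised it by 1.36 (SE 0.19, adjusted p = 0.000255) with it. Mylpf, the fast regulatory chain, was 2.75, 3.90 and 2.77 CPM in control, 2.69, 3.11 and 2.24 with dexamethasone, 6.57, 4.72 and 6.54 with LiCl and 11.4, 14.1 and 8.23 with both. It had the same pattern at smaller size: 0.95 (SE 0.23, adjusted p = 0.0166) with LiCl, -0.18 (SE 0.27, adjusted p = 0.735) with dexamethasone, 2.04 (SE 0.25, adjusted p = 0.000108) with LiCl added to dexamethasone and 0.91 (SE 0.21, adjusted p = 0.0159) with dexamethasone added to LiCl. Its LiCl call was lost without control pool 1 or 3 or LiCl pool 1 or 3 (0.86 to 0.88, adjusted p = 0.0585 to 0.0719), and that of dexamethasone on LiCl without LiCl pool 2 or Dex + LiCl pool 1 or 2 (0.71 to 0.89, adjusted p = 0.0528 to 0.109). Mybpc1, slow myosin-binding protein C, was 4.28, 3.06 and 4.33 CPM in control, 4.55, 6.38 and 3.59 with dexamethasone, 10.5, 11.5 and 9.78 with LiCl and 20.2, 17.4 and 13.1 with both. LiCl raised it by 1.41 (SE 0.21, adjusted p = 0.00048) alone and by 1.77 (SE 0.21, adjusted p = 9.87e-05) with dexamethasone present. Its rise with dexamethasone on LiCl (0.66, SE 0.19, adjusted p = 0.0474) was lost without any 1 of 8 libraries, namely control pools 1 and 3, Dex pool 1, all LiCl pools and Dex + LiCl pools 1 and 2 (0.52 to 0.73, adjusted p = 0.054 to 0.229).

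At the Z-disc, Ldb3, which anchors alpha-actinin, responded to dexamethasone. Ldb3 was 2.70, 3.25 and 3.88 CPM in control, 14.3, 16.2 and 13.9 with dexamethasone, 5.36, 5.09 and 4.60 with LiCl and 22.1, 20.3 and 20.1 with both drugs. The 4 groups did not overlap. Dexamethasone raised Ldb3 by 2.18 (SE 0.15, adjusted p = 1.11e-07) on the log2 scale without LiCl and by 2.05 (SE 0.14, adjusted p = 1.31e-07) with it. LiCl raised it by 0.61 (SE 0.16, adjusted p = 0.022) alone and 0.49 (SE 0.13, adjusted p = 0.0336) on dexamethasone, calls that were lost without control pool 1 or LiCl pool 1 or 2 (0.46 to 0.60, adjusted p = 0.0666 to 0.102) and without Dex pool 1 or 3 or any Dex + LiCl pool (0.44 to 0.51, adjusted p = 0.0771 to 0.116). Actn3, the fast-fibre alpha-actinin, was 1.44, 1.86 and 1.76 CPM in control, 4.55, 5.37 and 3.03 with dexamethasone, 1.29, 1.78 and 0.872 with LiCl and 3.06, 4.29 and 4.09 with both. All 6 pools with dexamethasone were above all 6 without, by 1.39 (SE 0.28, adjusted p = 0.00371) and, with LiCl, 1.55 (SE 0.29, adjusted p = 0.0025). It passed the filter only through Dex pool 2 and Dex + LiCl pool 3 (64 and 70 counts), in groups where it is high, and without either it was not tested. With no count filter, and all libraries, the differences were 1.37 (adjusted p = 0.000261) and 1.55 (adjusted p = 5.9e-05). LiCl did not change it past the threshold (-0.34, SE 0.30, adjusted p = 0.512 alone).

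Desmin, the intermediate filament that links neighbouring Z-discs, was also higher with dexamethasone. Des was 15.3, 15.1 and 17.3 CPM in control, 23.5, 30.0 and 21.1 with dexamethasone, 9.15, 13.1 and 11.6 with LiCl and 24.9, 27.5 and 21.8 with both. The pools with dexamethasone were all above those without it, and the LiCl pools were all below control. It rose by 0.65 (SE 0.15, adjusted p = 0.00912) with dexamethasone, lost without Dex pool 2 (0.48, adjusted p = 0.0653), and by 1.12 (SE 0.15, adjusted p = 0.000161) when dexamethasone was added to LiCl. Its change of -0.49 (SE 0.15) with LiCl alone lay at the threshold (adjusted p = 0.0503, and -0.51 with adjusted p = 0.0172 with the pool number as a block). Tcap, the titin cap, was 5.63, 8.91 and 5.49 CPM in control, 9.73, 4.11 and 5.72 with dexamethasone, 8.93, 9.28 and 10.8 with LiCl and 13.5, 14.2 and 12.9 with both, the last group lying above all other pools. It rose by 1.07 (SE 0.25, adjusted p = 0.0154) with LiCl added to dexamethasone, which was lost without Dex pool 3 (1.00, adjusted p = 0.0636). Myom1, an M-band protein, was 12.2 to 19.8 CPM over all pools and was not called.

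In the membrane systems, a pair of sarcoplasmic reticulum genes fell with dexamethasone and rose with LiCl. Srl (sarcalumenin, a calcium-binding protein of the reticulum) was 8.42, 6.68 and 7.66 CPM in control, 3.21, 2.77 and 3.92 with dexamethasone, 19.5, 14.7 and 13.8 with LiCl and 8.20, 6.30 and 7.42 with both. Control and both-drug pools overlapped, with all dexamethasone pools below and all LiCl pools above them. Its log2 fold change was -1.23 (SE 0.20, adjusted p = 0.00063) with dexamethasone, 1.06 (SE 0.16, adjusted p = 0.000789) with LiCl, 1.16 (SE 0.21, adjusted p = 0.00249) with LiCl added to dexamethasone and -1.13 (SE 0.17, adjusted p = 0.000464) with dexamethasone added to LiCl. With both drugs against control it was -0.07 (SE 0.18, adjusted p = 0.817). Ryr1, the calcium release channel of skeletal muscle, was 7.43, 7.52 and 8.56 CPM in control, 5.79, 2.94 and 3.25 with dexamethasone, 14.9, 11.4 and 11.6 with LiCl and 9.07, 8.39 and 9.11 with both. It fell by 0.99 (SE 0.22, adjusted p = 0.0068) with dexamethasone and rose by 0.68 (SE 0.18, adjusted p = 0.0288) with LiCl and by 1.16 (SE 0.22, adjusted p = 0.00391) with LiCl added to dexamethasone, while dexamethasone added to LiCl gave -0.50 (SE 0.19, adjusted p = 0.153). The LiCl call was lost without control pool 1 or 2 or LiCl pool 1 or 3 (0.55 to 0.74, adjusted p = 0.0582 to 0.125). Jph1, a junctophilin that holds the reticulum to the surface membrane, was 34.2 to 46.0 CPM over the 12 pools and was not called in any comparison.

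**Figure D3:**
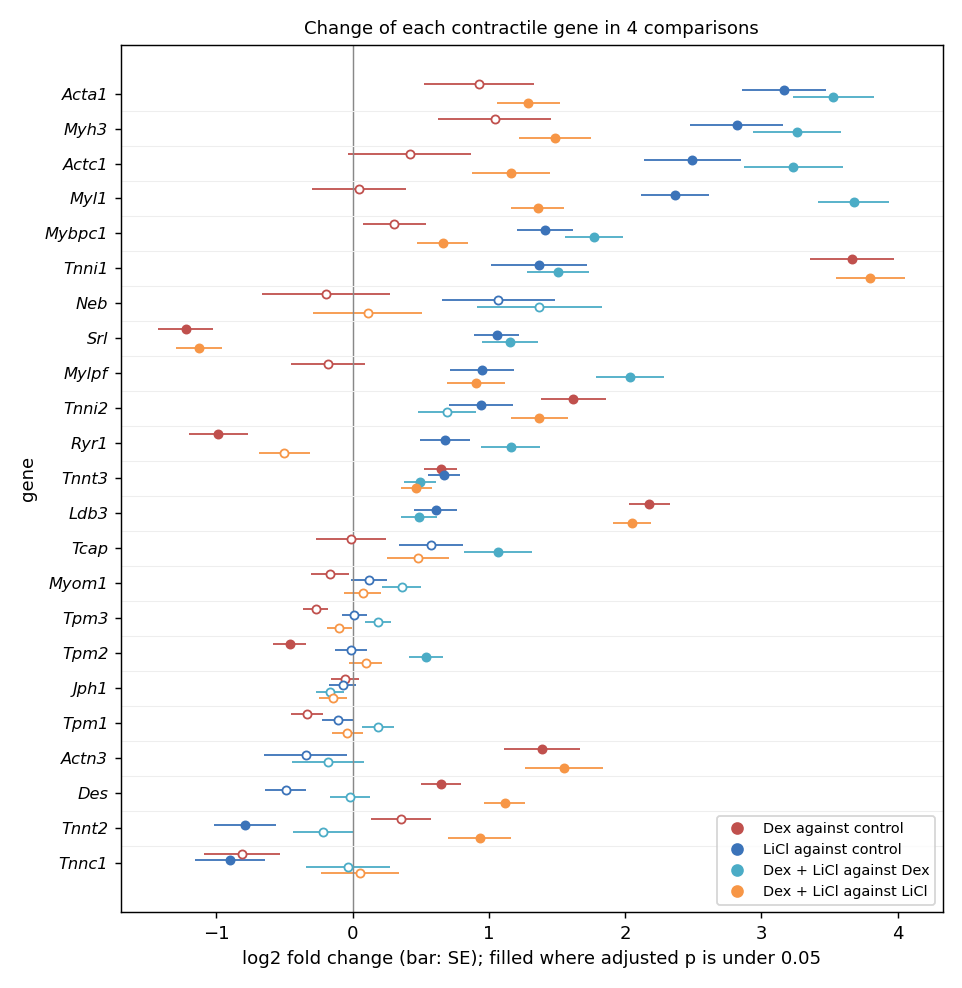
Log2 fold change (points) with its SE (bars) of the 23 tested contractile genes in 4 comparisons, ordered by the change with LiCl; filled points have an adjusted p under 0.05. Acta1, Myh3, Actc1 and Myl1 lie at 2.37 to 3.68 in both comparisons of LiCl, Tnni1 and Ldb3 at 2.05 to 3.80 in both comparisons of dexamethasone, and Srl on both sides of 0.

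By isoform class, 3 of 5 fetal, 4 of 10 slow, 5 of 14 fast and 11 of 17 shared genes passed the filter. With LiCl, 2 fetal genes rose (Myh3, Actc1) and 1 fell (Tnnt2), 2 slow genes rose (Tnni1, Mybpc1) and 1 fell (Tnnc1), and 4 fast genes rose (Myl1, Mylpf, Tnni2, Tnnt3), where 4.71% of all genes were higher and 5.9% lower. With dexamethasone, no fetal gene was called, 1 slow gene (Tnni1) and 3 fast genes (Tnni2, Tnnt3, Actn3) rose, and of the shared genes 2 rose (Ldb3, Des) and 3 fell (Tpm2, Ryr1, Srl), beside 5.45% higher and 5.49% lower of all genes. Of the genes named here Actc1 and Myl1 passed the filter only through pools with LiCl, and Myh3 and Tnni1 only through pools with a drug. Actn3 passed only through pools with dexamethasone and Tnnc1 only through control. Mylpf, Ryr1 and Srl passed through every condition except dexamethasone alone. The 5 fast genes tested were Myl1, Mylpf, Tnni2, Tnnt3 and Actn3, and none of them fell with either drug. Of all genes 5.49% fell with dexamethasone and 5.9% with LiCl, so 5 genes without a fall cannot be set apart from that share. The remaining fast genes were low.

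Ratios of 2 isoform genes within a library, which need no gene lengths to be compared between pools, were tested where both genes passed the filter (two-sided exact permutation test within levels of the other drug, p adjusted over 6 tests, smallest possible p = 0.005). The log2 ratio of slow to fast troponin I (Tnni1/Tnni2) was -1.19, -0.64 and -1.15 in control, 1.00, 1.25 and 0.55 with dexamethasone, -0.58, -0.99 and -0.27 with LiCl and 1.76, 1.76 and 1.93 with both. All pools with dexamethasone were above 0 and all pools without it below. Dexamethasone raised this ratio by 2.18 on average (exact p = 0.005, adjusted 0.015) and LiCl by 0.63 (exact p = 0.01, adjusted 0.02), the latter not past the threshold without LiCl pool 3 (0.54, adjusted 0.05). Tnni1 passed the filter only through pools with a drug, so a difference was built into the choice of this pair. The permutation p-values do not allow for that choice.

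The log2 ratio of cardiac-fetal to fast troponin T (Tnnt2/Tnnt3) was -0.75, 0.13 and -0.22 in control, -0.71, -0.32 and -0.73 with dexamethasone, -2.09, -1.58 and -1.61 with LiCl and -1.42, -1.19 and -1.15 with both. LiCl lowered it by 1.08 on average (exact p = 0.005, adjusted 0.015), by 1.48 without and 0.67 with dexamethasone, and dexamethasone gave 0.10 (exact p = 0.655), the mean of -0.31 without LiCl and 0.50 with it. All pools with both drugs lay above all LiCl pools, while dexamethasone and control pools overlapped, and the split was not tested.

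**Figure D4:**
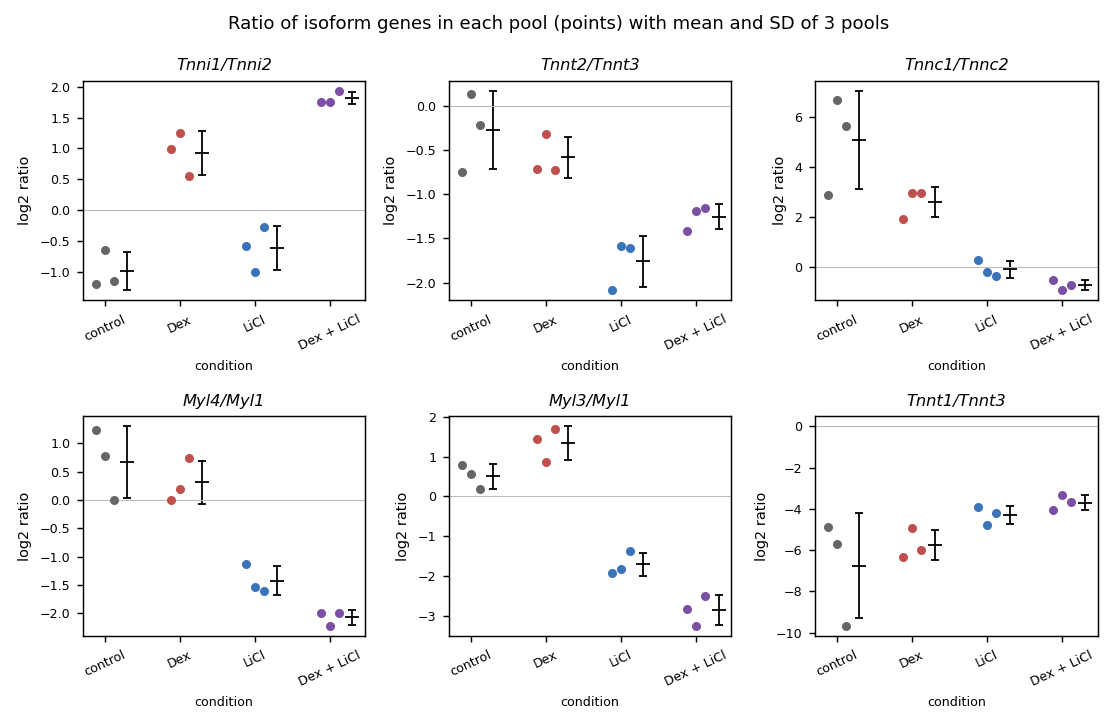
Log2 ratio of isoform genes in each pool (points) with the mean and SD of 3 pools (bars), by condition. Tnni1/Tnni2 is above 0 only in pools with dexamethasone, Tnnt2/Tnnt3 is lowest with LiCl, Myl4/Myl1 and Myl3/Myl1 are lowest with both drugs, and every pair but Tnni1/Tnni2 and Tnnt2/Tnnt3 includes 1 gene under the count filter, with control values of Tnnc1/Tnnc2 spread from 2.88 to 6.69.

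For pairs with a low gene, ratios were formed with no count filter for 12 of 14 pairs (24 tests), and the ones with control counts near 0 are spread widely. LiCl moved the log2 ratio of slow to fast troponin C (Tnnc1/Tnnc2) by -4.26, of embryonic to fast essential light chain (Myl4/Myl1) by -2.24, of slow to fast essential light chain (Myl3/Myl1) by -3.20, of slow to fast troponin T (Tnnt1/Tnnt3) by 2.26 and of cardiac to fast calsequestrin (Casq2/Casq1) by 1.54 (each exact p = 0.005, adjusted 0.0171). Myl4 and Myl3 themselves were 0.724 to 2.95 and 0.856 to 2.07 CPM over the 12 pools. In the fit with no count filter Myl4 rose by 1.33 (SE 0.39, adjusted p = 0.0213) with LiCl added to dexamethasone. Myl3 was not called in any comparison, and Myl1 rose in both comparisons of LiCl. Those of slow to fast myosin-binding protein C (Mybpc1/Mybpc2), of the common to the fast-fibre alpha-actinin (Actn2/Actn3) and of slow to embryonic heavy chain (Myh7/Myh3) moved by 1.75, 1.87 and -2.58 (each exact p = 0.01, adjusted 0.0218). The ratio of Myh8 to Myh3 changed by -0.76 with LiCl (exact p = 0.29, adjusted 0.387). Over these pairs, slow over fast rose with LiCl for troponin I, troponin T, myosin-binding protein C and calsequestrin, and fell for troponin C and the essential light chain. With dexamethasone, of the pairs with a low gene described here, only Tnnc1/Tnnc2 passed (-1.56, exact p = 0.015, adjusted 0.0277).

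Several low genes were also higher with LiCl. In a fit of all 23569 genes with at least 1 count, 22 of the 23 low members could be tested and none was called lower in any comparison. The shares given beside the counts are of all genes called in either direction. Shares by direction were not counted for this fit, so the lack of a lower call cannot be set apart from them. With dexamethasone none was called higher (8.4% of all genes were called in either direction). With LiCl 6 were higher (7.84%): Tnnc2, Tnnt1 (slow troponin T), Mybph, Casq2 (cardiac and slow calsequestrin), Atp2a1 (the fast calcium pump) and Ttn (titin). With LiCl added to dexamethasone 10 were higher (5.87%): Actn2, Atp2a1, Casq2, Ckm, Mybph, Myh8, Myl4, Myom2, Tnnc2 and Tnnt1. Adding dexamethasone to LiCl raised 2, Actn2 and Ckm (5.18%), and both drugs against control raised 10 (14.7%).

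Tnnc2 rose by 3.42 (SE 0.46, adjusted p = 2.09e-08) with LiCl and by 3.35 (SE 0.46, adjusted p = 4.29e-08) with LiCl added to dexamethasone. Tnnt1 had 13, 3 and 0 counts in control, 3, 12 and 3 with dexamethasone, 26, 20 and 34 with LiCl and 25, 44 and 47 with both, and rose by 2.29 (SE 0.48, adjusted p = 0.00034) with LiCl. Ckm, the muscle creatine kinase that buffers ATP, had 5, 2 and 3 counts in control, 2, 0 and 1 with dexamethasone, 7, 14 and 8 with LiCl and 17, 34 and 30 with both. Every pool with both drugs was above every other pool, by 2.02 (SE 0.45, adjusted p = 0.000901) against LiCl alone. Actn2, the alpha-actinin of all fibre types, had 33, 13 and 17, then 11, 7 and 10, then 36, 34 and 39, then 49, 54 and 76 counts in control, Dex, LiCl and Dex + LiCl. It rose by 2.39 (SE 0.33, adjusted p = 9.07e-08) with LiCl added to dexamethasone and by 1.24 (SE 0.27, adjusted p = 0.000924) with dexamethasone added to LiCl. Ttn had 2, 0 and 1 counts in control and 14, 6 and 1 with LiCl, and Myh8 2, 0 and 0 in control and 3, 11 and 20 with both, too few for a fold. Mylk2 (skeletal myosin light chain kinase) had 0 of 174821758 counts, which allows up to 0.0172 CPM over the 12 libraries, counting error only.

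**Figure D5:**
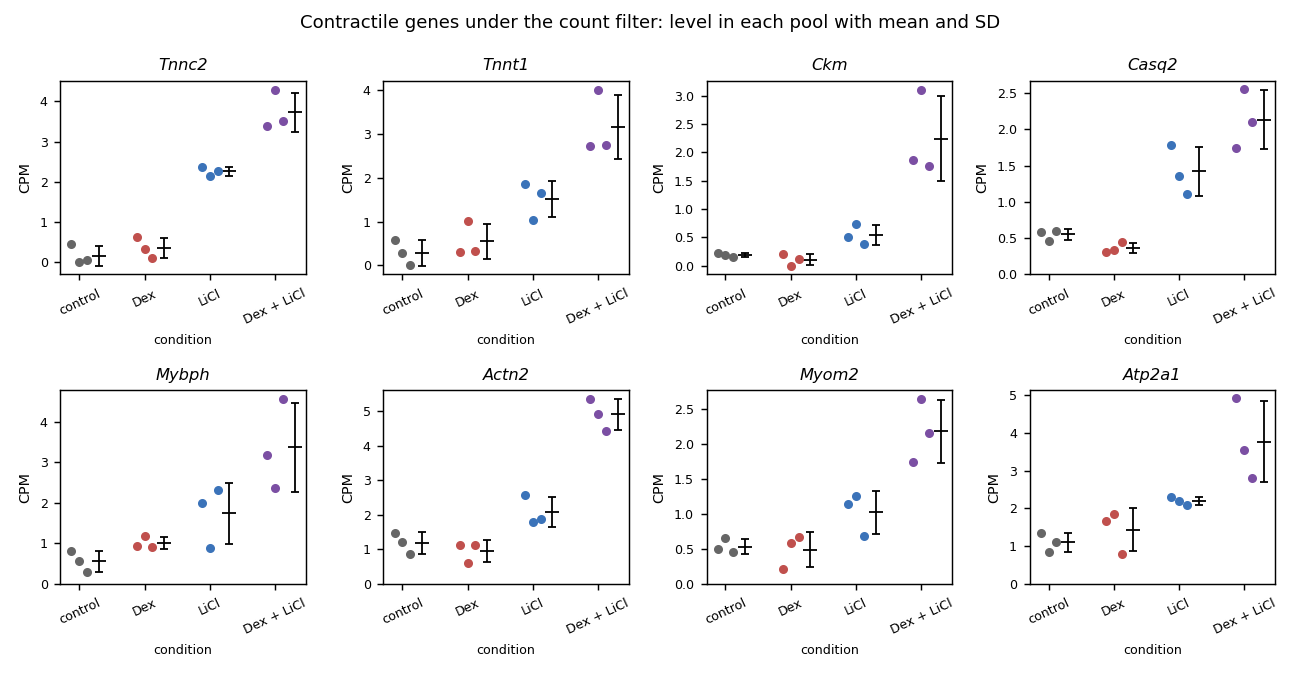
CPM of 8 contractile genes under the count filter in each pool (points) with the mean and SD of 3 pools (bars), by condition, on linear axes from 0 or just below. All 8 have their highest mean with both drugs, and all but Mybph have their LiCl pools above every control and dexamethasone pool, Myom2 only just (0.678 against 0.672 CPM).

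Whether the drugs changed each other's effect was tested as an interaction. None of the 23 members passed (1 of 12602 genes did, 0.00794%), with 5 members at an unadjusted p under 0.05 (Myl1, Mylpf, Tnnc1, Tpm2 and Des, of 705 genes in all), and DESeq2 gave 0 and 4. Myl1 had an interaction of 1.31 (SE 0.40, unadjusted p = 0.00462, adjusted p = 0.734) and Mylpf 1.09 (SE 0.34, unadjusted p = 0.0064, adjusted p = 0.738). The rise that dexamethasone gave Myl1 with LiCl and not without it is thus not shown to differ after adjustment.

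In the lists that follow, the counts stand beside 5.45% of all genes higher and 5.49% lower with dexamethasone and 4.71% and 5.9% with LiCl. Of 31 other sarcomere genes 8 were tested, and only Synpo2l was called, with dexamethasone (0.50, SE 0.13, adjusted p = 0.0163) and with both drugs. The rest of this list was low or not in the count files and was not tested, so the count does not speak for it. Some of those low genes, but not all, had a higher mean level with LiCl than in control. Myh6, listed first and the cardiac heavy chain, varied mainly between pools (85, 44 and 285 counts in control and 18, 12 and 101 with both) and was not called. Of 9 tested of 19 genes of excitation-contraction coupling, Jph2 (the second junctophilin of muscle) fell with dexamethasone by 1.05 (SE 0.19, adjusted p = 0.00191), as Srl and Ryr1 did, and Scn4a, the muscle sodium channel, rose by 1.26 (SE 0.30, adjusted p = 0.0164) with LiCl added to dexamethasone. Asph also rose with LiCl and Dysf fell with both drugs against control. Of 6 tested muscle energy genes, Pgam2 and Gys1 rose and Eno3 (muscle enolase, -1.11, SE 0.14, adjusted p = 0.000134) and Pygm (muscle glycogen phosphorylase, -0.63, SE 0.15, adjusted p = 0.0118) fell with LiCl. Of 7 tested genes of muscle wasting, 4 rose with dexamethasone, Klf15, Cebpd, Ddit4 and Foxo3, and none with LiCl, while the ubiquitin ligase Fbxo32 did not pass with dexamethasone (0.21, SE 0.24, adjusted p = 0.637).

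Markers of the cells that could carry these genes were measured beside them, and their part in the results was not tested. For these lists too, 5.45% of all genes were higher and 5.49% lower with dexamethasone, and 4.71% and 5.9% with LiCl. Of 15 myogenic factors in the files 7 passed the filter, none rose, and 2 fell with LiCl, Mef2a among them. Myog (myogenin, which drives myocyte differentiation) was low, with 21, 15 and 2 counts in control, 9, 4 and 3 with dexamethasone, 34, 43 and 26 with LiCl and 42, 31 and 39 with both, and Pax7 (satellite cells) had no count. Summed levels of 9 acetylcholine receptor and neuromuscular junction genes were 8.87 to 14.9 CPM in control, 9.19 to 20.5 with dexamethasone, 16.1 to 28.5 with LiCl and 21.7 to 34.9 with both, mostly from Chrne. Chrne, the 1 tested gene of this list, was not called with LiCl (1.00, SE 0.36, adjusted p = 0.0927). With LiCl added to dexamethasone it was not called either (0.85, SE 0.37, adjusted p = 0.186). It was higher with both drugs against control (1.26, SE 0.37, adjusted p = 0.022), where 10.8% of all genes were higher. Of 10 smooth muscle genes 6 were tested, and LiCl raised Acta2 (0.87, SE 0.14, adjusted p = 0.0013) and Myh11 (0.90, SE 0.19, adjusted p = 0.00748), and dexamethasone raised Mylk (0.79, SE 0.10, adjusted p = 6.22e-05). Tagln lay the other way, at -0.52 (SE 0.17, adjusted p = 0.0703) with LiCl, where all pools were below control, and fell by 0.61 (SE 0.18, adjusted p = 0.0213) with both drugs. Summed over the list, the level was 270 to 298, 302 to 336, 258 to 298 and 296 to 331 CPM in control, Dex, LiCl and Dex + LiCl. Of 7 cardiac genes 2 were tested and none was called, the sum was 5.38 to 19.4 CPM, and the defining Nkx2-5 and Nppb had no count in any library. Of 6 tendon genes 4 fell with dexamethasone and 2 with LiCl (summed 1671 to 1841 CPM in control, 1028 to 1398 with dexamethasone, 1360 to 1419 with LiCl and 1139 to 1303 with both). The sum is mostly Fmod, which fell with dexamethasone (-0.51, SE 0.11, adjusted p = 0.00453). Fmod was not called with LiCl (-0.32, SE 0.11, adjusted p = 0.0714). Of 6 pericyte genes 4 fell with LiCl, and of 7 endothelial genes 6 fell with dexamethasone.

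Symbols were taken as the files give them. In RefSeq 45 of the members are current symbols and Mylpf is now Myl11, and 6 members (Myh1, Myh7, Myl2, Mylpf, Tnnt3 and Ttn) are also listed as a synonym of another gene, so their counts depend on the annotation used.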

How the data were processed

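RNA of 12 pools of metatarsals (4 conditions, 3 pools each) had been sequenced after strand-specific mRNA library preparation. The deposited files give raw counts for each gene symbol. The study's methods state that the authors aligned reads with Subread, removed duplicates with Picard, used HTSeq-count and pooled technical replicates. Removing duplicates lowers the counts of highly expressed genes most. The submitters' processing notes name the human build hg19 (GRCh37) for these rat libraries, which leaves the build and annotation open, and gene coordinates from the counting are not given. The strand setting of the counting is not given in the sources used here. Reads carried no molecular tags, and total counts of 9055581 to 21953446 per library limit precision. Replicates of a group differed beyond sampling noise.

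Of 30045 symbols, 12602 that reached 60 counts in 2 or more libraries were kept, TMM-scaled and fitted over all 12 libraries with condition as the only term (edgeR 4.0.16, quasi-likelihood F-test, R 4.3.3), two-sided, with Benjamini-Hochberg adjustment over all genes. Simulated data in the design of dexamethasone against control (12415 genes tested) recovered 68% of genes changed 1.5-fold, 90% at 2-fold and 100% at 3-fold and 5-fold, with 14 false calls. Isoform ratios were log2 ratios of TMM-scaled values with 0.5 counts added to each gene, compared by an exact permutation test within levels of the other drug. Of these, 1 tested pair is not reported here, though its tests count in the adjustment. Python 3.11.15 with pandas 2.3.3 and matplotlib 3.10.9 made the tables and plots. Promoters are from RefSeq (GRCr8), matched by symbol for 36 of the 46 members.

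The members, isoform classes and other gene lists were chosen with earlier results of these data known, so nothing here is independent support for them. Any member could be named. Full values were given for the 4 members with the largest change among those called in each comparison, for both genes of the tested isoform pairs and for members called against the main direction, and other members are described after their values were seen. The same holds for the low genes and for the genes named from the other lists, which besides their first genes were picked among those with the smallest adjusted p or as known markers.

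Pool numbers come from the labels, which do not say what they mark; the study's methods speak of 3 experiments, and it describes each pool as coming from 1 rat, with 3 rats used, without tying numbers to rats. After removal of group means, same-numbered pools of LiCl and control had correlations of 0.21 to 0.30. The correlations were 0.19 to 0.50 for both drugs and dexamethasone and 0.28 to 0.41 for both drugs and LiCl. For both drugs and control they were 0.13 to 0.29. Same-numbered pools were taken as pairs in these comparisons, but only the fit with the pool number as a block used the pairs. The main fit and the permutation tests ignored the numbers, so their results are unpaired. The correlations between dexamethasone and control were 0.03 to 0.17, and the numbers were not taken to pair these. The alternatives were RLE scaling, DESeq2 1.42.0, filterByExpr, no filter, a fold minimum of 2, the pool number as a block, only the groups compared, counts thinned to the smallest library and each library left out.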

Additional observations from a re-analysis of the deposited data

How the results depend on the processing

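None of the 64 called member changes reversed under any alternative, and 19 lost the call with at least 1 library left out. The 3 calls of Actn3 could not be tested without Dex pool 2 or Dex + LiCl pool 3, nor the 2 of Tnnc1 without control pool 1 or 3, since the gene then fell under the count filter, so that 22 calls were lost or untested with a library left out. The calls of Actn3 were also untested with only the groups compared and those of both genes with thinned counts. RLE scaling, DESeq2, filterByExpr, no filter and the replicate block each left all 64 called, and a fold minimum of 2 removed 20. Numbers of called members were 9, 14, 13, 14 and 14 (dexamethasone against control, LiCl against control, both against dexamethasone, both against LiCl, both against control). With a fold minimum of 2 they were 5 for dexamethasone and 7 for LiCl against control. With no filter, where low members enter, they were 23 for LiCl against control and 25 for both drugs against dexamethasone and against control, and with filterByExpr 22 and 24 for the latter comparisons. Leaving out 1 library gave 8 to 9, 8 to 15, 9 to 14, 9 to 14 and 12 to 15, with 9 for LiCl against control without control pool 1 and 8 without LiCl pool 3, and 9 for both against LiCl without Dex + LiCl pool 1 or 2. The interaction stayed at 0 members.

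With the replicate block the numbers were 12, 16, 15, 14 and 15. For dexamethasone against control, where the pairing check did not pass, the block added Tnnc1, Tpm1 and Tpm3, all lower. The block changed no other call than these and those of Neb, Des and Tnni2 given above among the results reported here. 

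Leaving out 1 library, the LiCl difference of Tnni1/Tnni2 was 0.53 to 0.72 and its dexamethasone difference 2.08 to 2.27. For Tnnt2/Tnnt3 these were -1.19 to -0.97 and -0.02 to 0.20, the dexamethasone difference, never past the threshold, changing sign without control pool 1 (-0.0182). Low genes were fitted once, without a filter, and not with libraries left out. The cause of these shifts was not tested.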
